A study of Homo sapiens with 11 samples.

Results

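TSC22D3, DUSP1, NFKBIA, ZBTB16, KLF9, SGK1, ERRFI1, CEBPD and MT2A are 9 genes that glucocorticoids induce in many cell types. They were examined in Ishikawa cells, an established human endometrial cancer cell line, through every peak that lay within 50 kb of their gene bodies on the hg19 genome. Of 90458 peaks in 8 lists, 122 met that rule, and the 9 windows spanned 1.35 Mb. Chromatin immunoprecipitation sequencing had been run for the glucocorticoid receptor (GR), the estrogen receptor (ER) and H3K27ac, the acetylated lysine 27 of histone H3 that marks active enhancers and promoters. All cells were kept beforehand in phenol-red-free medium with hormone-stripped serum. GR was mapped after 1 h with 100 nM dexamethasone, a synthetic GR ligand, or with dexamethasone plus 10 nM estradiol, the ER ligand; the pair is called the combination. ER was mapped after 1 h with estradiol or the combination. H3K27ac was mapped after 8 h with DMSO vehicle and the 3 hormone treatments. Each group was 1 library, so no replicate spread or test between treatments can be given.

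GR is a ligand-activated transcription factor that stays in the cytoplasm until hormone binds it, then enters the nucleus and occupies DNA elements near its targets. Several of its best-known targets restrain other signalling pathways. TSC22D3 encodes GILZ, a leucine zipper protein that mediates anti-inflammatory effects of glucocorticoids. NFKBIA encodes the inhibitor that holds NF-kB in the cytoplasm, DUSP1 a phosphatase that switches off MAP kinases, and ERRFI1 an inhibitor of the EGF receptor. ZBTB16, KLF9 and CEBPD encode transcription factors, SGK1 a kinase that controls ion transport, and MT2A a metal-binding metallothionein.

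The 250 bases before the gene start are shown first for 4 genes. MT2A and NFKBIA had a GR site within 1 kb of the start, KLF9 had acetylation over its start with dexamethasone alone, and TSC22D3 had the most GR sites. The sequences come from the RefSeq table of build GRCh38.p14, so they carry no peak coordinates of the hg19 lists. Windows of 7 of the 9 genes were used, and ZBTB16 and CEBPD were left out of the motif search. Capitals mark matches to the TATA box (TATAAA), to the NF-kB motif and, in MT2A alone, to the metal response motif (TGCNCNC), on either strand. The MT2A window is chr16:56608334-56608583 on the plus strand, the NFKBIA window chr14:35404750-35404999 on the minus strand, the KLF9 window chr9:70414658-70414907 on the minus strand, and the TSC22D3 window, which precedes an inner start of that gene, chrX:107717063-107717312 on the minus strand.
MT2A: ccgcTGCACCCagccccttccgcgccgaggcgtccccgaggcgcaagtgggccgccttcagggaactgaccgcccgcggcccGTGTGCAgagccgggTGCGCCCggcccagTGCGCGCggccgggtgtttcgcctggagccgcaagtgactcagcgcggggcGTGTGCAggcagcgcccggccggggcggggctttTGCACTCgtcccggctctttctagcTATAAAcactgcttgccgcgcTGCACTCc
NFKBIA: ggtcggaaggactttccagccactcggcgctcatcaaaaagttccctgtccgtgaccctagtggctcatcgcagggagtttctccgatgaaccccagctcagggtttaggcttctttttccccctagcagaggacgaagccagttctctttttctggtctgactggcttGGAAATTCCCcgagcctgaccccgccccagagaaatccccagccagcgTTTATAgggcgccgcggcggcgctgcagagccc
KLF9: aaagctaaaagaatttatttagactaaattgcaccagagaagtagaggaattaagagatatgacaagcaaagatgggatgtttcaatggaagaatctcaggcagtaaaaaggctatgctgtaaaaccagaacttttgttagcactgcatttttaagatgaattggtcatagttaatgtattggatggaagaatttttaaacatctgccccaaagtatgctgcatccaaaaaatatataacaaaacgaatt
TSC22D3 inner start: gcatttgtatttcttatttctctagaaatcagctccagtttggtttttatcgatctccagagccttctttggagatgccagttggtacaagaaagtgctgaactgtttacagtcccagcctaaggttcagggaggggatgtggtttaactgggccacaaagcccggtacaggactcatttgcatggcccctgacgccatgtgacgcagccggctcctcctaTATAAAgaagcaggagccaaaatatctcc

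The 12 windows of the 7 genes were searched on both strands for a strict form and a relaxed form, with an open base in each arm, of the palindromic glucocorticoid response element, for its 6-base arm AGAACA, which the strict form contains, and for the estrogen response element. None held a match. These motifs matched 0.00285%, 0.327%, 12.4% and 0.0399% of all 35116 windows of that length. By distance from the start, only the MT2A GR site, with its summit at −0.231 kb, could fall within a window, and only in part. The nearest GR summits at NFKBIA, DUSP1 and KLF9 were at 0.666, −1.33 and −5.44 kb, and those of ERRFI1 and TSC22D3 lay farther off. No GR site was searched whole, so the lack of matches cannot tell whether GR sites hold these motifs. MT2A held 7 matches to the metal response motif, which has any match in 49.1% of windows, and a TATA box 29 bases before the start. Windows not shown also matched the metal response motif, at DUSP1, at SGK1 and, with 4 matches, at another start of TSC22D3. NFKBIA held an NF-kB match 81 bases before the start (1.73% of windows) and a TATA box. KLF9 held none of these motifs, and the inner start of TSC22D3 held a TATA box 29 bases before it (10.7% of windows). These are matches of letters, not measured binding.

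GR was called near 7 of the 9 genes with dexamethasone and near 4 with the combination. There were 12 GR sites with dexamethasone: 4 at TSC22D3, 2 each at NFKBIA and ZBTB16, and 1 each at DUSP1, KLF9, ERRFI1 and MT2A. With the combination there were 9: the same 4 at TSC22D3, 2 at NFKBIA, 2 at ZBTB16 and 1 at KLF9. SGK1 and CEBPD had no GR site in either list. The windows held 8.86 dexamethasone GR sites per Mb, against 0.672 per Mb over the 2.7 Gb genome size that the peak caller used. All 12 lay in the stronger 50% of the dexamethasone list and 9 lay in its strongest 25%, ranked by the authors' −log10 q. Their median fold enrichment (summit coverage over local control, the authors' ratio) was 27.4, against 13.0 for the whole list. With the combination the median was 22.01, against 13.5. The genes were chosen as glucocorticoid-induced and with earlier results of these data known, so these contrasts are descriptive only.

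**Figure D1:**
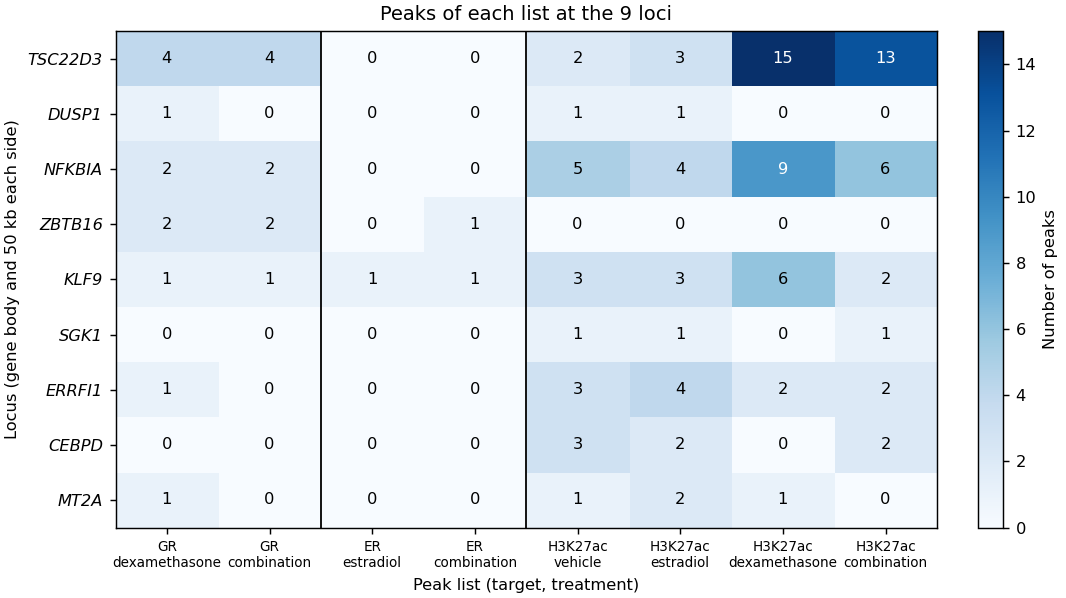
Number of peaks in each of the 8 lists (columns, 1 library each) at each of the 9 loci (rows, gene body and 50 kb on each side). TSC22D3 had 15 H3K27ac peaks with dexamethasone and 13 with the combination, against 2 with vehicle and 3 with estradiol, and ZBTB16 had GR sites and no H3K27ac peak.

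Every combination GR site at these genes was also a dexamethasone site. Of the 12 dexamethasone sites, 9 (75%, exact Clopper-Pearson 95% interval 42.8 to 94.5, counting error only) overlapped a combination site by at least 1 bp. Over the whole list the share was 56.8%. Of the 9 combination sites all 9 (66.4 to 100) were dexamethasone sites, against 63.1% of the whole combination list. The sites seen with dexamethasone alone were those at DUSP1, ERRFI1 and MT2A. These had the lowest −log10 q of the 12, at 22.5, 35.5 and 23.3, and all 3 fell between the strongest 25% and the stronger 50% of the list, where 65.0% of sites were shared. The other 9 fell in the strongest 25%, where 96.0% were shared. The dexamethasone GR library had 6353466 usable tags and the combination library 5206574. The part of depth in the 3 missing calls was not tested.

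At the shared sites the summits lay 4 to 54 bp apart between the GR lists. The order of the 9 shared sites by −log10 q differed between the lists, and the ranks below are by that value and not by fold enrichment. The site inside NFKBIA stood at rank 4 of 9 with dexamethasone and rank 9 with the combination, and the site upstream of KLF9 at rank 3 and rank 8. The TSC22D3 site 74.2 kb past the outermost gene start stood at rank 5 and rank 3. The ZBTB16 sites held ranks 1 and 2 in both lists, in swapped order.

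**Figure D2:**
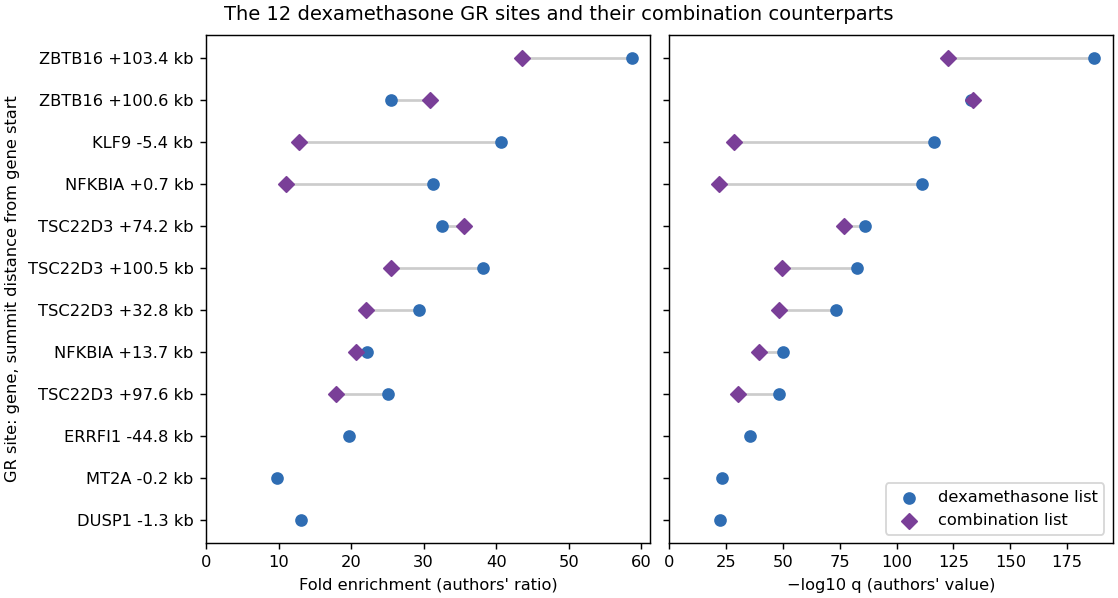
The 12 dexamethasone GR sites (rows, named by gene and distance of the summit from the gene start in kb) with the authors' fold enrichment (left) and −log10 q (right). Circles are the dexamethasone list and diamonds the combination list, 1 library each, and sites without a diamond were not called with the combination; NFKBIA at +0.7 kb and KLF9 at −5.4 kb show the widest gaps among sites called in both lists.

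ER was called at 2 of the 9 loci. The windows held 0.738 estradiol ER sites per Mb, against 1.32 over the genome size that the peak caller used. With the combination the values were 1.48 and 0.882. KLF9 had the only estradiol ER site, inside the gene 1.43 kb past its start (fold enrichment 24.2), and it was also called with the combination (16.7). ZBTB16 had a combination ER site (15.1, −log10 q 23.9) on its GR site at 100.6 kb. Of the 12 dexamethasone GR sites, 0 overlapped an estradiol ER site and 1 overlapped a combination ER site, against 20.1% and 20.7% of the whole GR list. The interval for 0 of 12 reached 26.5% and that for 1 of 12 reached 38.5%, so both include the shares of the whole list. These intervals take sites as independent, though several share a locus.

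By length under H3K27ac peaks, TSC22D3 differed most of the 9 loci between the vehicle list and those of dexamethasone and the combination. Over all 9 loci the 4 lists merged into 36 H3K27ac regions, 9 of them present in all 4. Here gained means called in a treatment's list but not in the vehicle list, and lost means the opposite, so neither word is a measured level. The comparisons share the vehicle list and are given side by side. With dexamethasone 16 were gained and 7 lost, where 10.8% of all 27111 merged regions were gained and 35.3% lost. With the combination 12 were gained and 3 lost, where 14.9% and 15.1% of all regions were gained and lost. With estradiol 2 were gained and 0 lost, where 21.8% and 4.6% were. TSC22D3 supplied 11 of the dexamethasone gains and 10 of the combination gains. At the other 8 loci, of 22 regions, 5 were gained and 7 lost with dexamethasone, and 2 were gained and 3 lost with the combination. Regions of 1 locus are neighbours and not independent, so these shares describe the loci only.

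Of the 16 regions gained with dexamethasone, 5 had a GR site of the same treatment within 1 kb, all at TSC22D3, against 11.2% of all dexamethasone-gained regions. The 5 gains outside TSC22D3 had fold enrichments of 7.11 to 10.4. The 7 lost regions were the pair at CEBPD, the SGK1 region, the starts of DUSP1 and ERRFI1, the region past MT2A and a region 49.3 kb beyond the far end of ERRFI1. Of these 7, 0 had a GR site of the same treatment within 1 kb, where 0.753% of all dexamethasone-lost regions did, so the count is near the whole-list share. The part of the lower depth and higher duplicate share of the dexamethasone H3K27ac library in these losses was not tested.

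**Figure D3:**
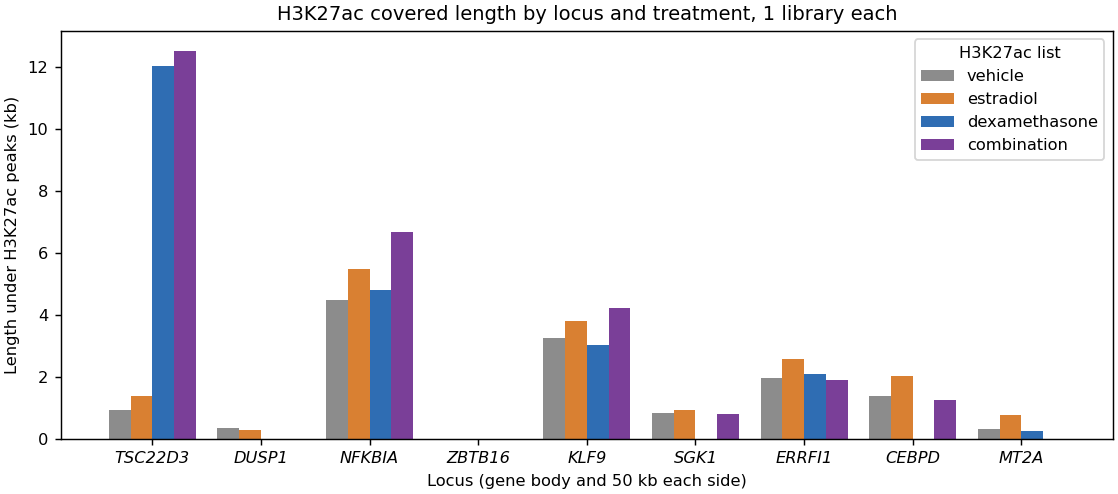
Length in kb under H3K27ac peaks at each locus (groups of bars) in the vehicle, estradiol, dexamethasone and combination lists, 1 library each, so bars carry no error. TSC22D3 has 0.932 kb with vehicle and 12.03 kb with dexamethasone, while DUSP1, SGK1 and CEBPD have 0 with dexamethasone and ZBTB16 has 0 in every list.

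TSC22D3 carried the most GR sites of the 9 genes and 11 of the 16 acetylated regions listed with dexamethasone and not with vehicle. The 4 sites formed 3 groups along the locus. One lay inside the gene body at chrX:106985092-106985281, 32.8 kb past the outermost start, with fold enrichment 29.4 with dexamethasone and 22.01 with the combination. The site at chrX:106943633-106943973, 12.5 kb beyond the far end of the body, had values of 32.5 and 35.6. A pair lay further on, at chrX:106920364-106920521 (25.1 and 17.9) and chrX:106917354-106917546 (38.2 and 25.5), 35.9 and 38.9 kb beyond the body. All 4 were in the strongest 25% of the dexamethasone list.

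H3K27ac at TSC22D3 covered 0.932 kb in 2 peaks with vehicle and 1.39 kb in 3 peaks with estradiol. It covered 12.03 kb in 15 peaks with dexamethasone and 12.5 kb in 13 peaks with the combination. The mean fold enrichment of these peaks was 13.0, 14.9, 13.8 and 15.2 in the same order. The whole lists ran differently, with 18.0 Mb covered in the vehicle list, 24.2 Mb for estradiol, 12.4 Mb for dexamethasone and 20.3 Mb for the combination. The dexamethasone H3K27ac library had 9034395 usable tags and 33% duplicates, against 18508574 and 18% with vehicle, and its list was the shortest. The estradiol library had 10852521 and 19%, and the combination library 9657258 and 22%.

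Merging the 4 H3K27ac lists gave 14 regions at TSC22D3. Of the 14, 11 were gained and 0 lost with dexamethasone, 10 were gained and 0 lost with the combination, and 0 were gained or lost with estradiol. Only 2 regions were present in all 4 lists: 55.8 to 56.5 kb past the outermost start, and 96.2 to 100.5 kb past it around the farthest GR pair. The second of these was 1 vehicle peak of 503 bp, 2 estradiol peaks of 438 and 399 bp, dexamethasone peaks of 2379 and 1363 bp, and combination peaks of 632 and 3430 bp.

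The gained regions lay on the GR sites and also away from them. Of the 11 gained with dexamethasone, 5 had a GR site of that list no more than 1 kb away. The strongest gained peak, chrX:106942757-106943790, had a fold enrichment of 21.5 with dexamethasone, and its combination counterpart 15.1. The summit of the GR site at 74.2 kb lay inside it with dexamethasone, and the next peak, chrX:106943976-106945609 (17.5), followed on its other side. With the combination the same summit lay in a gap of 396 bp between peaks. Another gained region, chrX:106959903-106961456, lay 56.5 to 58.1 kb past the outermost start with no GR site within 1 kb. In the RefSeq table (GRCh38.p14) the inner starts of TSC22D3, 1 of which was shown above, lie 58.9 and 59.5 kb past the outermost start of that table. No position was converted between builds, so these distances and those of the hg19 regions may not share a zero point. The remaining gains with dexamethasone were at 32.1 to 33.2, 36.7 to 37.4, 41.8 to 43.2, 89.0 to 90.5 and 100.6 to 101.6 kb.

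**Figure D4:**
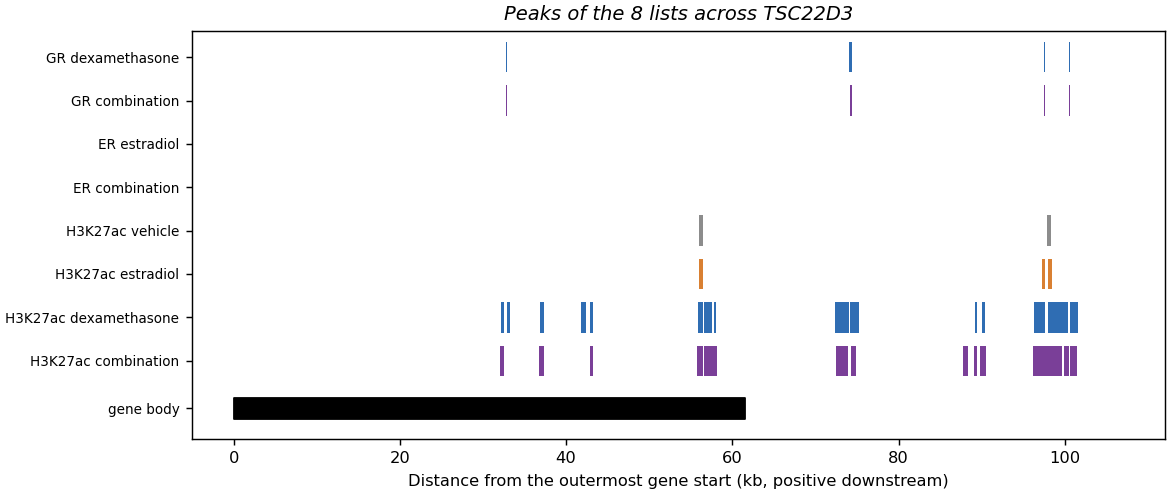
Peaks of the 8 lists (rows) across TSC22D3, plotted by distance in kb from the outermost gene start, with the gene body in black; the narrowest GR peaks are drawn slightly wider than scale. The dexamethasone and combination H3K27ac rows hold peaks within 1 kb of all 4 GR sites. The vehicle and estradiol rows hold peaks only near 56 and 98 kb, the latter within 1 kb of the GR site at 97.6 kb.

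NFKBIA had acetylation in every list and a strong GR site inside the gene. The site at chr14:35873033-35873413, 666 bp past the start, had fold enrichment 31.3 (−log10 q 111.3) with dexamethasone and 11.0 (22.1) with the combination. A second site, chr14:35860144-35860343, lay 10.4 kb beyond the far end of the gene, with values of 22.2 and 20.7, and had no H3K27ac within 1 kb in any list. Around the start, H3K27ac peaks reached fold enrichments of 19.7 (vehicle), 24.4 (estradiol), 14.7 (dexamethasone) and 24.5 (combination). With vehicle and estradiol the summit of the inner GR site lay inside an H3K27ac peak. With dexamethasone and the combination it lay between peaks, in gaps of 559 and 405 bp. The vehicle and estradiol lists also had a break within this GR interval, which did not reach the summit. Vehicle peaks ended at 35873161 and resumed at 35873238, and estradiol peaks ended at 35873124 and resumed at 35873208. Of 7 merged regions, 4 were in all lists and 0 were lost with any treatment. With dexamethasone 2 were gained, chr14:35875266-35875963 at −2.003 to −1.31 kb from the start (fold enrichment 7.49) and chr14:35856324-35856616, 17.3 to 17.6 kb past the start and beyond the far end of the gene (7.11). Peaks covered 4.46 kb in the vehicle list, 5.49 kb for estradiol, 4.78 kb for dexamethasone and 6.67 kb for the combination.

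DUSP1 had a GR site with dexamethasone alone, chr5:172199475-172199608, with its summit at −1.33 kb from the gene start (fold enrichment 13.1), with no H3K27ac within 1 kb in any list. Acetylation at its start was a single narrow peak with vehicle (11.3, 343 bp) and with estradiol (8.64, 293 bp). It was not called with dexamethasone or the combination, so it counted as lost in both. Its −log10 q in the vehicle list was 28.1, which placed it at 53.2% of that list counted from the strongest.

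ERRFI1 had its only GR site far upstream, chr1:8131105-8131233, summit at −44.8 kb from the start, called with dexamethasone alone (fold enrichment 19.8). It sat at the edge of a strong acetylated region of 1622 bp present in all 4 lists, with fold enrichments of 22.1 (vehicle), 32.4 (estradiol), 22.3 (dexamethasone) and 27.1 (combination). These peaks were among the strongest 4.59% to 6.08% of each list. SLC45A1 is the next protein-coding gene on that side in the RefSeq order, so the region is near ERRFI1 by distance only. PARK7 is next on the other side. The region 49.3 kb beyond the far end, lost with dexamethasone, is therefore also near ERRFI1 by distance only. Just inside the ERRFI1 start, a region with fold enrichments of 6.47 (vehicle) and 7.80 (estradiol) was not called with dexamethasone or the combination. Just before the start, at −0.51 to −0.157 kb, a peak was called with estradiol alone (10.7). A region at −20.4 to −19.95 kb, chr1:8106347-8106808, was called with dexamethasone alone (9.82).

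By −log10 q, ZBTB16 carried the strongest GR sites of the 9 genes in both GR lists, and it had no H3K27ac peak. Both lay inside the gene body, 100.6 and 103.4 kb past the start. The site at chr11:114033554-114033851 had fold enrichment 58.7 (−log10 q 186.7) with dexamethasone, where it stood at rank 24 of 1815, and 43.5 (122.5) with the combination, at rank 52 of 1628. The site at chr11:114030748-114031069 had 25.5 (132.9) and 30.9 (133.5), at ranks 65 and 42. No H3K27ac peak lay within 50 kb of the gene in any of the 4 lists. Such sites were common: 41.1% of all dexamethasone GR sites had no H3K27ac within 1 kb in any list, and among the strongest 25% the share was 40.0%. At these genes they numbered 4 of 12, the ZBTB16 pair with the DUSP1 site and the distal NFKBIA site.

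KLF9 had GR, ER and acetylation close to its start. Its GR site, chr9:73034943-73035172, had its summit at −5.44 kb from the start, with fold enrichment 40.7 (−log10 q 116.6) with dexamethasone and 12.8 (28.3) with the combination. The summit lay inside an H3K27ac peak in all 4 lists, in a merged region at −6.80 to −2.94 kb from the start. That region was 2 peaks with vehicle, 2 with estradiol, 4 with dexamethasone and 1 of 3607 bp with the combination. A narrow region over the gene start, chr9:73029530-73029821 (fold enrichment 9.84), at −0.248 to 0.043 kb, was called with dexamethasone alone. The ER site lay 1.43 kb past the start, beside a region 0.251 to 1.02 kb past it that was acetylated in every list.

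CEBPD had no GR or ER site and was acetylated in every H3K27ac list except that of dexamethasone. Around its start the H3K27ac peaks reached fold enrichments of 15.0 with vehicle, 19.9 with estradiol and 15.4 with the combination, and the dexamethasone list held none. The 2 merged regions lay at 0.107 to 1.22 kb, inside the gene, and at −0.955 to −0.021 kb. The covered lengths were 1.38, 2.03 and 1.265 kb in those 3 lists. The upstream peak was in the strongest 25% of the vehicle list, at 21.1%. Regions called in those 3 lists and not with dexamethasone numbered 4 of 36 at the 9 loci and 5699 of 27111 over all. The dexamethasone H3K27ac library had 9034395 usable tags, against 18508574 with vehicle, 10852521 with estradiol and 9657258 with the combination. The part of depth in these absences was not tested.

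SGK1 likewise had no receptor site, and its only acetylated region was missing with dexamethasone alone. That region, chr6:134496197-134497168, had fold enrichment 19.0 with vehicle, 17.7 with estradiol and 12.7 with the combination. It lay 142.0 to 143.0 kb past the outermost start. The RefSeq table (GRCh38.p14) places inner SGK1 starts 140.3 and 143.2 kb past the outermost start of that table, and no position was converted between builds.

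MT2A had a GR site directly before its start with dexamethasone alone. The site, chr16:56642144-56642329, had its summit at −231 bp from the start and a fold enrichment of 9.73 (−log10 q 23.3), the lowest fold of the 12. An H3K27ac peak overlapped it with estradiol (7.56) and in no other list. A peak 1.40 to 1.77 kb past the start was present with vehicle (7.46) and estradiol (6.97), and one at 2.34 to 2.60 kb with dexamethasone (10.4). The combination list held none in this window. Metallothionein genes adjoin MT2A on both sides in the RefSeq order (MT3 and MT1E), so these peaks cannot be assigned to MT2A alone.

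**Figure D5:**
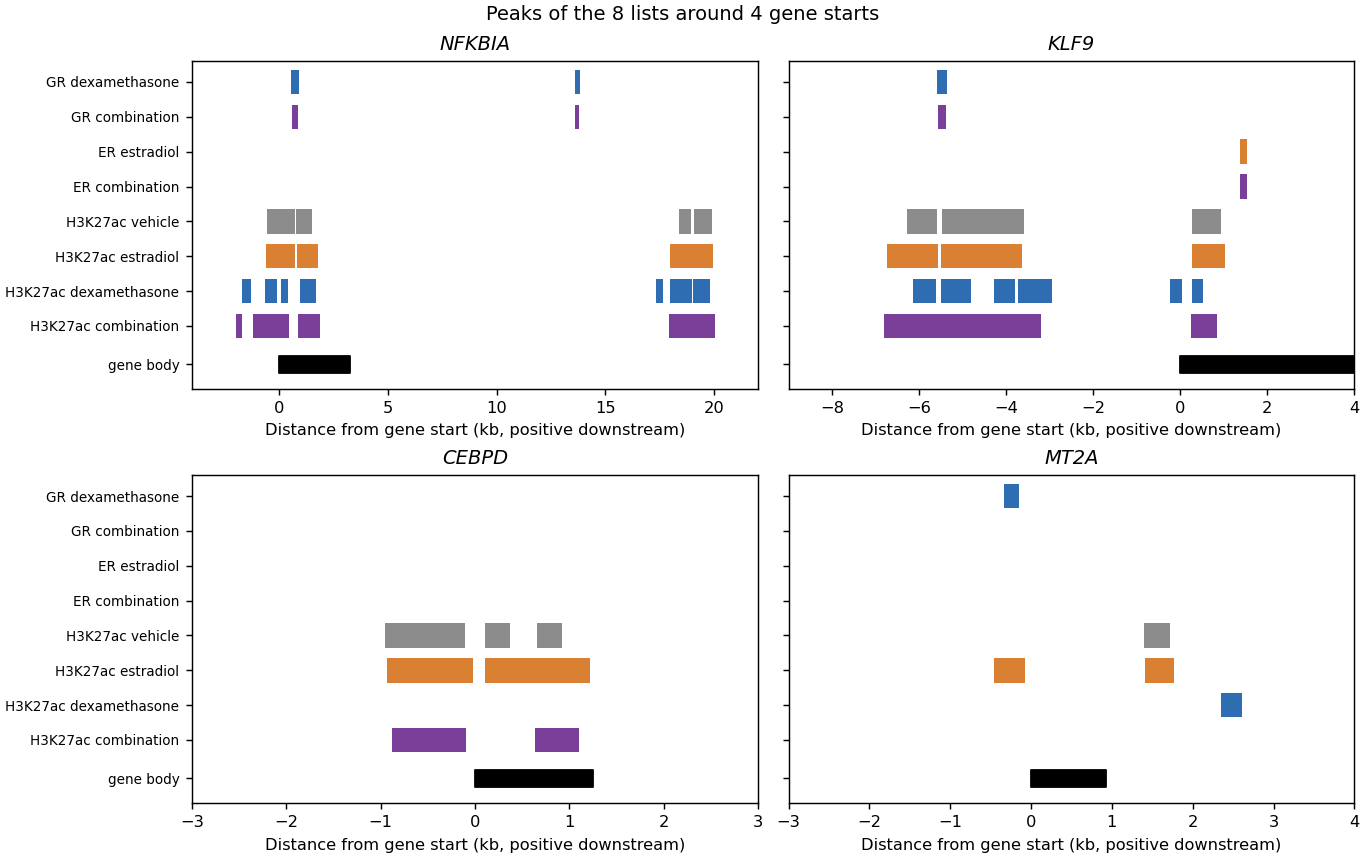
Peaks of the 8 lists (rows) around the starts of NFKBIA, KLF9, CEBPD and MT2A, by distance in kb from the gene start with the gene body in black. The dexamethasone H3K27ac row is empty at CEBPD, and at NFKBIA the summit of the inner GR site falls in a gap of the dexamethasone and combination H3K27ac rows. The vehicle and estradiol rows have a narrower gap there that does not reach the summit.

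Seen from the GR sites, acetylation within 1 kb was present at 4 of 12 in the vehicle list, 5 for estradiol and 7 each for dexamethasone and the combination. Over all dexamethasone GR sites the shares were 45.5%, 48%, 52.8% and 54.2%, so the counts at these genes (33.3%, 41.7%, 58.3% and 58.3%) were near them in each list. The 3 sites with H3K27ac within 1 kb in the dexamethasone list and not with vehicle were all at TSC22D3. The summit lay between H3K27ac peaks, within 1 kb of both, at 3 of 12 sites with dexamethasone and 3 with the combination, and at 0 with vehicle. The shares of the whole GR list were 17%, 9.64% and 4.57%. The gaps with dexamethasone were 279 bp at each of 2 TSC22D3 sites and 559 bp at NFKBIA.

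The distance rule left some receptor sites outside. The outermost GR site inside was that of ERRFI1, 44.7 kb from the gene body. Between 50 and 100 kb, sites called in both GR lists lay 72.7 kb from MT2A (fold enrichment 25.4 with dexamethasone and 12.3 with the combination), 77.3 kb from CEBPD (36.3 and 22.4) and 97.96 kb from DUSP1 (18.4 and 14.9). A site 95.1 kb from ERRFI1 (8.76) was called with dexamethasone alone. For H3K27ac, the ERRFI1 peaks 49.3 to 49.5 kb from the body were inside in 3 lists, and their neighbours at 50.2 to 50.3 kb were outside.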

How the data were processed

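The series lists 11 samples of chromatin immunoprecipitation sequencing, and 8 peak lists, 1 library each, were analysed; vehicle ER, vehicle GR and the control sample were not analysed here as lists. Per the submitters' processing notes, Bowtie 1.1.2 (hg19) and MACS2 2.1.0.20140616 were used. The file headers give a p cutoff of 1e-10 against a control, whose kind (IgG or input) is uncertain from the labels, and scaling of the larger library down to the smaller. Usable control tags were 5735043 for the GR lists, 3479280 for ER and 14002417 for H3K27ac, so the targets may not share a control. The authors deposited pileup, a signal that gives fragment coverage at each summit. The authors deposited significance as −log10 of the p-value and q-value, and fold enrichment as a ratio to local control. These values were used to describe and rank peaks within a list, since depth and scaling differ between lists. Usable tags ranged from 5206574 to 8508828 for receptor and from 9034395 to 18508574 for H3K27ac libraries. H3K27ac times follow the treatment label, since the protocol text also gives 1 h.

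Peaks with any base within 50 kb of the hg19 gene bodies were taken with pandas 2.3.3 in Python 3.11.15. An overlap was 1 bp or more, and shares carry exact Clopper-Pearson 95% intervals (scipy 1.17.1) that cover counting error only. They take sites as independent, though sites of a locus are neighbours. Overlapping or touching H3K27ac peaks of the 4 lists were merged into regions, and a region counted as present in each list that had a peak in it. Overlap code was tested on simulated intervals. No hg19 genome or annotation was used, so exons and peak sequences are not given, and another list of glucocorticoid-responsive genes was not analysed here. Promoter sequences are from RefSeq (GRCh38.p14). Gene orientation of ZBTB16 and CEBPD is general knowledge. All 9 members are named, with the strongest receptor site of each list and each H3K27ac region gained or lost with dexamethasone at each locus. The members, lists and settings were chosen with earlier results of these data known.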

Additional observations from a re-analysis of the deposited data

How the results depend on the processing

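Of 66 values under other settings, 45 stayed within 1.5 times the reported count or within the interval of the reported share. The 66 include a setting chosen after seeing the data, given below. The intervals were wide (42.8 to 94.5 and 66.4 to 100), so a share could hardly leave them. The share of dexamethasone GR sites also called with the combination ranged from 66.7% to 75%, and every combination GR site was a dexamethasone site under each setting. A 10 kb window left 7 dexamethasone and 5 combination GR sites, and 9 regions gained with dexamethasone and 5 with the combination. A 100 kb window gave 8 loci with a dexamethasone GR site and 7 with a combination site, where the 50 kb window gave 7 and 4. The difference in loci between the GR lists thus depended on the window. The 100 kb window also gave 6 regions gained and 3 lost with estradiol, and 5 lost with the combination. With lists cut to their stronger 50%, 1 combination ER site remained. Merging H3K27ac peaks within 1 kb left 6 regions gained with dexamethasone, 6 with the combination and 1 with estradiol; merging itself joins neighbours. Counting only peaks of the stronger 50% left 7 gained and 3 lost with dexamethasone, 0 gained with estradiol, and 6 gained and 0 lost with the combination. Lists cut to equal length gave 1 region gained and 1 lost with estradiol, and 17 gained with 5 lost for dexamethasone.

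A setting chosen after seeing the data left TSC22D3 out, which left 5 regions gained with dexamethasone and 2 with the combination. The cause of these moves, beyond the number of regions each setting counts, was not tested. No paired analysis was possible because each group holds 1 library. A site absent from a list is one that did not pass the p cutoff of 1e-10 there, and the part of depth in absent calls was not tested.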
